A study of Nicotiana tabacum with 12 samples.

Results

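Expression of 3 tobacco genes of chlorophyll breakdown is described here in seedling leaves: a chlorophyllase gene (Nitab4.5_0011519g0020), a Staygreen gene (Nitab4.5_0011435g0010) and a gene with a pheophorbide a oxygenase domain (Nitab4.5_0002162g0210). They are 3 of the 69500 genes in the deposited table and were selected on their measured levels in these libraries, so their values are given as a description, without a test. RNA was sequenced from leaves of Nicotiana tabacum in 12 libraries, 3 for each of 4 genotypes: YOE, labelled overexpression, Q18, labelled knockout, and the wild types K326 (a flue-cured cultivar) and KY. The study asked how NtCISZOG, by its name a cis-zeatin O-glucosyltransferase, acts on chlorophyll content. Its design text names K326-gk-8 and KY-OE-31 as the mutants, which makes K326 the wild type for the knockout and KY the one for the overexpression line. The sources used here do not give the promoter of the transgene, the edit in Q18, the number of independent lines or the age of the seedlings. Whether the 3 libraries of a group stem from different plants is not stated, so p-values measure the spread between these libraries, which may be technical.

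When a leaf yellows, green pigment is taken apart in plastids along a short pathway. Staygreen proteins remove magnesium from chlorophyll a and are best known from peas and rice plants whose mutants stay green. Chlorophyllase cuts the phytol tail off the ring, and in Arabidopsis it is dispensable for senescence. Pheophorbide a oxygenase, a plastid enzyme with a Rieske iron-sulphur centre, then opens the ring, and red chlorophyll catabolite reductase acts on its product. The pheophorbide a oxygenase domain is not limited to that enzyme: in other plants it also occurs in chlorophyllide a oxygenase, which makes chlorophyll b, and in a component of the plastid import machinery. The name of the third gene therefore rests on its domains (pheophorbide a oxygenase and Rieske) alone. Tobacco is an allotetraploid, and most enzymes are encoded by several near copies among which reads can be split or moved.

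Values were taken as TPM, a length-corrected share of transcripts, and their sum over the table ranged from 334759 to 676862 among the libraries. Over the 31311 genes tested, the log2 difference had a median of -0.11 for YOE minus KY, -0.50 for YOE minus K326, 0.24 for Q18 minus K326 and 0.39 for K326 minus KY. After division of each library by the median of its ratios to the average library (median scaling), these medians were -0.01, -0.02, 0.02 and 0.02, and both scales are given where they differ. The leaf label held: 93 genes of light-harvesting proteins summed to between 20610 and 44940 TPM and 14 genes of the Rubisco small subunit to between 10010 and 22850 TPM in every library. Of 87 genes that stood at 2 TPM or more in each K326 library and at 0.2 or less in each KY library, YOE libraries had 82 to 85 and Q18 libraries 85 or 86 at 1 TPM or more. At those genes the libraries labelled YOE went with K326, not with the wild type named in the design text. Genes with the reverse pattern, present in KY and absent in K326, were not examined. An effect of the line and one of the background therefore cannot be told apart, and each gene is also set against K326. NtCISZOG itself was not analysed here.

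Among the trio the chlorophyllase gene Nitab4.5_0011519g0020 differed most between groups, being abundant in the YOE leaves alone. It stood at 8.97, 15.7 and 43.55 TPM in YOE, at 3.06, 0.86 and 0.65 TPM in Q18, at 0.91, 2.2 and 1.68 TPM in K326, and at 0.22, 0.55 and 0.26 TPM in KY. As deposited, each YOE library lay above all 9 others, Q18 and K326 overlapped, and all libraries of both lay above KY. The group means were 22.7 ± 18.3 TPM in YOE, 1.52 ± 1.34 TPM in Q18, 1.60 ± 0.649 TPM in K326 and 0.343 ± 0.180 TPM in KY (SD, n = 3 each). In YOE the mean was 66.2 times that in KY and 14.2 times that in K326. On the log2(TPM + 1) scale, which understates changes of low genes, YOE minus KY was 3.87 (SE 0.64), YOE minus K326 was 2.94 (SE 0.67), Q18 minus K326 was -0.13 (SE 0.46) and K326 minus KY was 0.93 (SE 0.24). The size in YOE leaned on replicate 3, without which the ratio was 35.9 to KY and 7.72 to K326. Median scaling raised the contrast, with 31.02 ± 18.91 in YOE, 1.17 ± 1.07 in Q18, 1.41 ± 0.373 in K326 and 0.433 ± 0.187 in KY, and a YOE mean 22.01 times that of K326. On that scale YOE still lay above all others and K326 above KY, but Q18 replicates 2 and 3, at 0.57 and 0.538, lay within the range of KY, whose highest library was at 0.646.

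**Figure D1:**
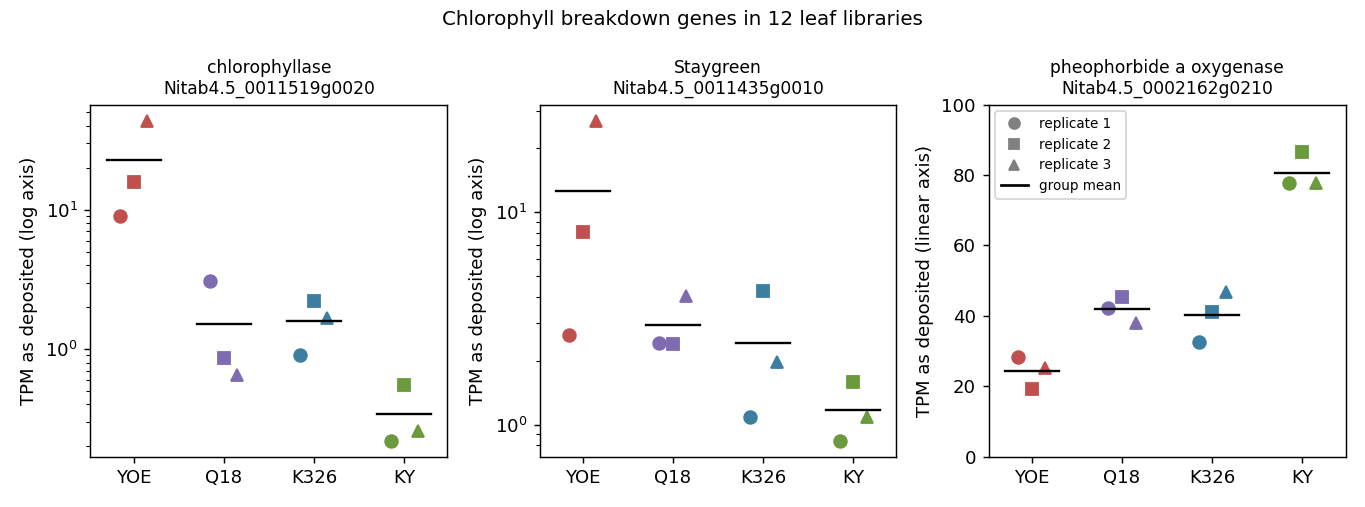
Deposited TPM of the chlorophyllase gene, the Staygreen gene (both on log axes) and the gene with a pheophorbide a oxygenase domain (linear axis) in each library of YOE, Q18, K326 and KY. Marker shapes give the replicate and bars the group mean. The chlorophyllase gene reaches 8.97 to 43.55 TPM in YOE and at most 3.06 TPM elsewhere, while the oxygenase gene is highest in KY, at 77.72 to 86.52 TPM.

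The table described 7 genes as chlorophyllase, and the share of Nitab4.5_0011519g0020 in their summed TPM set YOE apart. It held 55.9 ± 22.5% of the sum in YOE (from 31.6 to 76.0%), 5.27 ± 4.88% in Q18, 5.42 ± 1.48% in K326 and 1.44 ± 0.682% in KY (SD, n = 3 each). The sum of all 7 was 37.3 ± 17.4 TPM in YOE, 29.8 ± 2.22 TPM in Q18, 28.7 ± 5.03 TPM in K326 and 23.6 ± 1.33 TPM in KY. As deposited, the sums of 28.38 and 26.12 TPM in YOE replicates 1 and 2 thus lay within the range of K326 (22.85 to 31.67 TPM), and only replicate 3, at 57.27 TPM, lay above. With median scaling all YOE sums (39.3 to 66.0) lay above all of K326 (24.2 to 29.2) and KY (29.2 to 32.2). Of the 6 other copies, 4 passed the filter on low values. Nitab4.5_0011519g0010, the neighbour by number of the copy high in YOE, was at 0.12 TPM or less in all 12 libraries, and Nitab4.5_0004743g0040 reached 1 TPM at most.

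Of the 4 other chlorophyllase copies tested, 2 were called lower in YOE than in KY as deposited, opposite to the copy of the trio. With median scaling 1 was. Of all tested genes, 11.5% were lower as deposited and 17.3% with median scaling. Nitab4.5_0000321g0220 stood at 7.78, 3.11 and 3.97 TPM in YOE and at 8.43, 10.48 and 9.16 TPM in KY (log2 difference -0.87, limma adjusted p = 0.039). Nitab4.5_0000252g0240 stood at 3.73, 2.01 and 3.29 TPM in YOE and at 6.19, 5.44 and 5.15 TPM in KY (log2 difference -0.74, limma adjusted p = 0.0435). Neither pair of groups overlapped, yet both calls were weak: each was lost when any of the 3 KY libraries or YOE replicate 2 was left out (the first also without YOE replicate 3), and the second with median scaling. Against K326 the first was also lower as deposited (log2 difference -1.02, limma adjusted p = 0.0158), as was Nitab4.5_0004412g0010 (-0.81, adjusted p = 0.0373), but neither passed with median scaling (adjusted p = 0.242 and 0.464). Nitab4.5_0000252g0240 was not called in YOE against K326 on either scale. Its log2 difference there was -0.52 as deposited and -0.01 with median scaling (limma adjusted p = 0.0908 and 0.984). Nitab4.5_0000871g0040, at 1.18 to 3.51 TPM in all libraries, passed in no comparison.

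The Staygreen gene Nitab4.5_0011435g0010 was also highest in YOE, but unevenly so. Its level was 2.65, 8.06 and 26.93 TPM in YOE, 2.43, 2.39 and 4.04 TPM in Q18, 1.08, 4.24 and 1.96 TPM in K326, and 0.84, 1.58 and 1.08 TPM in KY. As deposited, YOE replicates 2 and 3 lay above every other library, whereas replicate 1 lay within the range of Q18 and K326. All YOE and Q18 libraries were above KY, and K326 overlapped YOE, Q18 and KY. With median scaling the levels were 3.67, 15.6 and 31.1 in YOE, 1.91, 1.58 and 3.35 in Q18, 1.17, 3.24 and 1.82 in K326, and 1.14, 1.86 and 1.47 in KY. All YOE libraries then lay above the 9 others, replicate 1 by a narrow margin, and Q18 overlapped KY. The means were 12.6 ± 12.8 TPM in YOE, 2.95 ± 0.941 TPM in Q18, 2.43 ± 1.63 TPM in K326 and 1.17 ± 0.378 TPM in KY (SD, n = 3 each), so that the SD in YOE was as large as its mean. YOE minus KY was 2.18 (SE 0.86) on the log2 scale and 1.42 without YOE replicate 3. YOE minus K326 was 1.61 (SE 0.93), Q18 minus K326 was 0.29 (SE 0.43) and K326 minus KY was 0.57 (SE 0.41). The ratio of means to KY was 10.8 with all YOE libraries and 4.59 without replicate 3, and that to K326 was 5.17 and 2.21. With median scaling and all libraries the ratio was 11.3 to KY and 8.08 to K326, and the log2 differences were 2.45 (SE 0.83) for YOE minus KY and 2.19 (SE 0.86) for YOE minus K326.

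A second Staygreen copy, Nitab4.5_0000140g0110, had the same uneven pattern in YOE, at 0.51, 6.93 and 17.13 TPM, against 0.91, 0.91 and 0.26 TPM in Q18, 0.82, 0.49 and 0.33 TPM in K326 and 1.35, 1.01 and 0.83 TPM in KY. Replicates 2 and 3 of YOE were again above all others, and replicate 1 was not. It was singled out after its values were seen and passed the test against neither wild type (log2 difference 1.55 and limma adjusted p = 0.18 for YOE minus KY, 1.97 and 0.0548 for YOE minus K326). With median scaling it did not pass either (log2 difference 1.76 and limma adjusted p = 0.072 for YOE minus KY, 2.41 and 0.0507 for YOE minus K326). Both of these copies were minor ones. The 8 listed Staygreen genes summed to 134 ± 42.2 TPM in YOE, 153 ± 17.8 TPM in Q18, 149 ± 19.2 TPM in K326 and 169 ± 13.0 TPM in KY, and Nitab4.5_0011435g0010 held 8.28 ± 6.26%, 2.00 ± 0.890%, 1.57 ± 0.933% and 0.698 ± 0.246% of those sums.

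Of the 5 other Staygreen copies tested, 2 more abundant ones were called lower in YOE than in KY on both scales. Of all tested genes, 11.5% were lower as deposited and 17.3% with median scaling. Nitab4.5_0000847g0060 was at 50.49, 39.26 and 42.81 TPM in YOE, 80.84, 43.66 and 51.36 TPM in Q18, 57.19, 60.34 and 72.52 TPM in K326 and 101.91, 82.07 and 82.51 TPM in KY, and it was lower in YOE than in KY (log2 difference -0.99, limma adjusted p = 0.00639). Nitab4.5_0004701g0060 was lower too, at 22.9 ± 3.47 TPM in YOE against 42.6 ± 4.91 TPM in KY (log2 difference -0.87, limma adjusted p = 0.0205), a call lost without KY replicate 1 or 2 or YOE replicate 2. With median scaling both were also lower in K326 than in KY (log2 differences -0.97 and -0.95, limma adjusted p = 0.0243 and 0.0153), which was not called as deposited. Neither was called in YOE against K326. There the log2 differences were -0.51 and -0.41 as deposited (limma adjusted p = 0.0809 and 0.167). With median scaling their sign turned, to 0.15 and 0.23 (limma adjusted p = 0.768 and 0.566). Nitab4.5_0010544g0020 stood at 31.5 ± 17.0 TPM in YOE and 20.5 ± 2.34 TPM in KY and was called higher only with median scaling (log2 difference 0.65, limma adjusted p = 0.047). Nitab4.5_0001714g0060, at 9.03 to 35.25 TPM, passed in no comparison, and Nitab4.5_0001714g0050 and Nitab4.5_0008133g0020 stayed at 0.29 TPM or less.

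**Figure D2:**
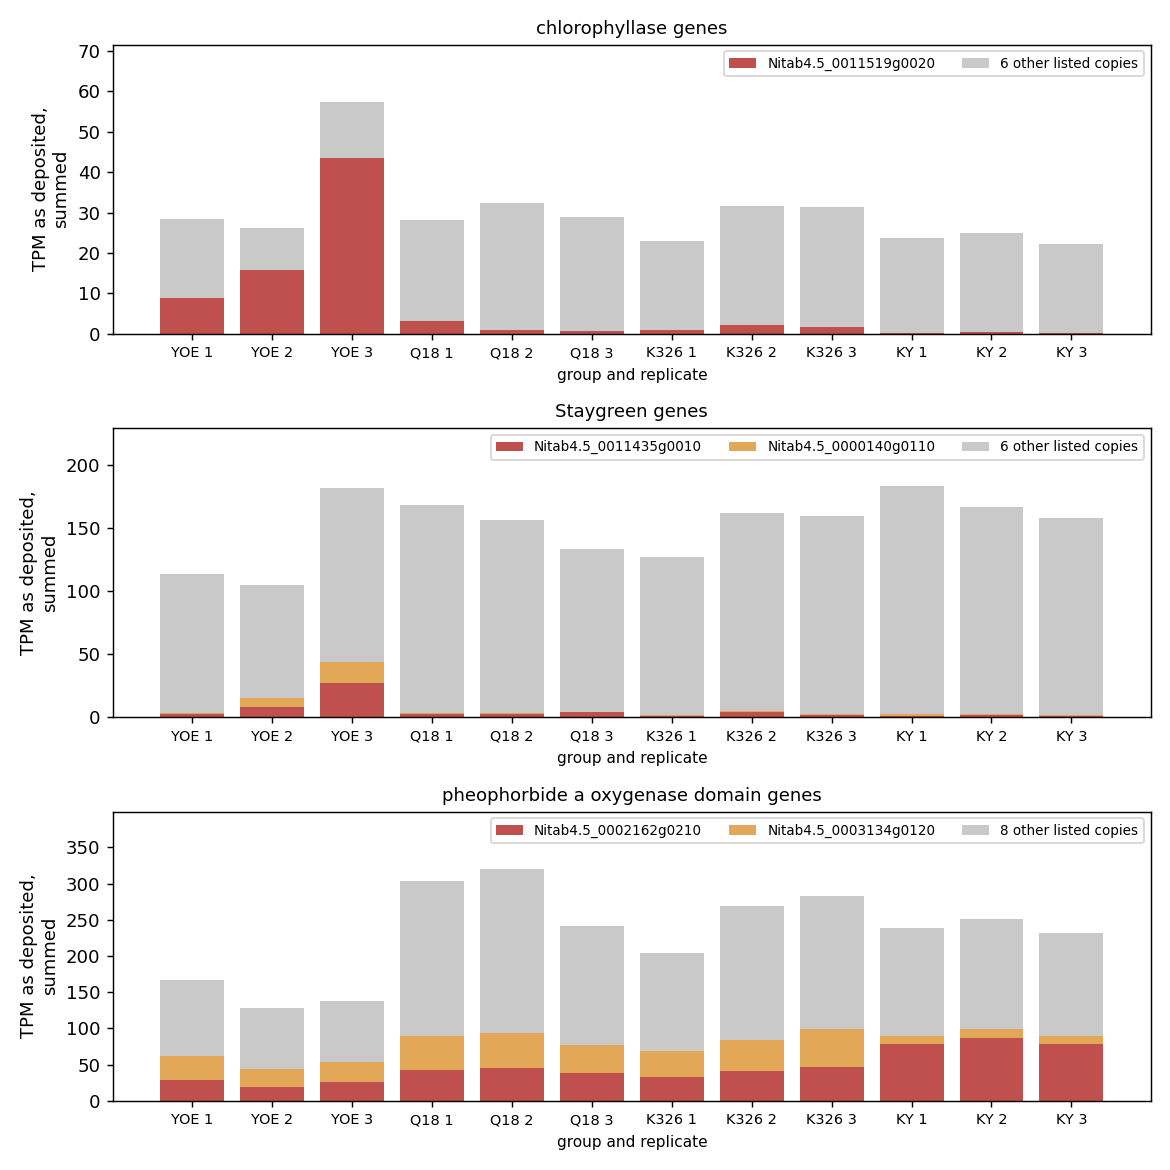
Summed TPM as deposited of all listed chlorophyllase genes (top), Staygreen genes (middle) and genes with a pheophorbide a oxygenase domain (bottom) in each library, with the copy of the trio in red, a second copy named in the text in orange, and the others in grey. The red chlorophyllase copy makes up 31.6 to 76.0% of its sum in YOE and at most 10.9% elsewhere, and the oxygenase copy 32.5 to 34.6% in KY against 14.0 to 18.4% in the other groups.

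As deposited, the gene with a pheophorbide a oxygenase domain, Nitab4.5_0002162g0210, was lowest in YOE, opposite to the rest of the trio. On that scale it also varied less within each group than they did. It stood at 28.32, 19.22 and 25.26 TPM in YOE, 42.33, 45.38 and 37.96 TPM in Q18, 32.45, 41.01 and 46.9 TPM in K326, and 77.72, 86.52 and 77.8 TPM in KY. Every KY library was above the 9 others, Q18 and K326 overlapped, and every YOE library was below them all. Means were 24.3 ± 4.63 TPM in YOE, 41.9 ± 3.73 TPM in Q18, 40.1 ± 7.27 TPM in K326 and 80.7 ± 5.06 TPM in KY (SD, n = 3 each). The log2 difference was -1.71 (SE 0.17) for YOE minus KY, -0.70 (SE 0.22) for YOE minus K326, 0.07 (SE 0.17) for Q18 minus K326 and -1.004 (SE 0.16) for K326 minus KY. Only the position of KY was kept by median scaling, with 35.2 ± 5.35 in YOE, 31.6 ± 1.56 in Q18, 36.7 ± 6.24 in K326 and 104 ± 2.39 in KY. On that scale YOE overlapped K326, and the log2 differences were -1.55, -0.06, -0.20 and -1.50 in the same order of comparisons. The difference of -0.70 from K326 as deposited stands beside a median shift of -0.50 over all genes in that comparison.

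Another gene with the same 2 domains, Nitab4.5_0003134g0120, was its mirror image between cultivars. It stood at 33.56, 25.05 and 28.42 TPM in YOE, 46.74, 48.69 and 38.81 TPM in Q18, 36.28, 42.24 and 52.05 TPM in K326 and 11.33, 12.27 and 12.19 TPM in KY. It was higher than in KY in YOE (log2 difference 1.21, SE 0.20, limma adjusted p = 6.2e-04) and in K326 (1.77, SE 0.20, limma adjusted p = 1.9e-05), in every library and under all 14 alternatives of each comparison. These comparisons share the KY libraries. As deposited it was lower in YOE than in K326 (log2 difference -0.56, limma adjusted p = 0.0397), whereas with median scaling the sign turned (0.09, adjusted p = 0.783). The pairing of these genes was made after their values were seen. Of their summed level, Nitab4.5_0002162g0210 held 45.4 ± 1.85% in YOE, 48.4 ± 0.971% in Q18, 48.0 ± 1.13% in K326 and 87.1 ± 0.582% in KY (SD, n = 3 each). These shares do not depend on the scaling of libraries, and those of KY lay apart from all 9 others. The sum itself was 53.3 ± 8.81 TPM in YOE, 86.6 ± 8.90 TPM in Q18, 83.6 ± 15.1 TPM in K326 and 92.6 ± 5.37 TPM in KY. With median scaling the sums were 77.8 ± 13.8, 65.2 ± 4.01, 76.7 ± 14.3 and 120 ± 3.36 in that order of groups. Whether reads of KY and K326 match the reference copies equally well was not tested.

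Among the remaining 8 genes with this domain, 4 were lower in YOE than in KY on both scales, where 11.5% of all tested genes were lower as deposited and 17.3% with median scaling. As deposited, Nitab4.5_0000668g0080 averaged 19.8 ± 4.82 TPM in YOE and 37.2 ± 0.859 TPM in KY (log2 difference -0.90, limma adjusted p = 0.00701). For Nitab4.5_0001110g0090 the means were 15.5 ± 4.43 TPM in YOE and 29.2 ± 1.70 TPM in KY (-0.91, adjusted p = 0.0116). Nitab4.5_0001803g0050 and Nitab4.5_0001996g0080 were less abundant, at 2.56 ± 1.19 and 3.01 ± 0.999 TPM in YOE against 6.85 ± 0.511 and 7.76 ± 0.463 TPM in KY (log2 differences -1.19 and -1.16, adjusted p = 0.00624 and 0.0068). Nitab4.5_0000173g0160 was higher in K326 than in KY, at 20.6 ± 2.55 against 10.8 ± 0.388 TPM (log2 difference 0.86, limma adjusted p = 0.0143), a call lost without K326 replicate 2 or KY replicate 1 or 3. Against KY it was also higher in YOE with median scaling (0.38, adjusted p = 0.0327). Nitab4.5_0000322g0180, Nitab4.5_0003719g0050 and Nitab4.5_0009628g0010 were not called against KY in YOE or in K326. Against K326, 8 of the 9 tested genes with this domain beside the trio were lower in YOE as deposited and 0 with median scaling, beside 36.9% and 4.73% of all tested genes. The sources used here do not say which of these genes encode pheophorbide a oxygenase itself.

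For red chlorophyll catabolite reductase, which takes over the product of the oxygenase, each listed gene had similar means across the groups once scaled. As deposited, Nitab4.5_0001064g0040 was at 34.2 ± 10.8 TPM in YOE, 57.8 ± 9.18 TPM in Q18, 46.7 ± 1.297 TPM in K326 and 40.1 ± 1.56 TPM in KY, and Nitab4.5_0000033g0420 at 14.3 ± 4.5, 28.5 ± 7.195, 23.1 ± 1.04 and 14.9 ± 1.56 TPM in that order of groups. With median scaling the means in that order were 48.3, 43.4, 43.1 and 52.0 for Nitab4.5_0001064g0040. For Nitab4.5_0000033g0420 they were 20.2, 21.25, 21.3 and 19.3. Nitab4.5_0000033g0420 was lower in YOE than in K326 as deposited (log2 difference -0.70, limma adjusted p = 0.0371), and neither gene was called in any comparison with median scaling. Chlorophyll b reductase and pheophytinase were not analysed here, since 0 descriptions matched their names.

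Beside the trio, 24 genes were listed for the pathway and 20 were tested, with calls that changed with the comparison and the scale. In YOE against KY, 1 was higher and 8 lower as deposited, where 6.76% of all tested genes were higher and 11.5% lower. The median log2 difference of the 20 was -0.53, against -0.11 over all genes. With median scaling 3 were higher and 7 lower (17.7% and 17.3% of all genes), and all 7 lower genes were among the 8. In YOE against K326, 0 were higher and 11 lower as deposited (15 at an unadjusted p under 0.05, lower and higher together), beside 1.89% and 36.9% of all genes. With median scaling limma called 0 of the 20 in that comparison (5 at an unadjusted p under 0.05), beside 5.59% higher and 4.73% lower over all genes. The count of 11 fell to 3 without K326 replicate 2 or 3 and to 5 without YOE replicate 2, and that of 8 lower than KY fell to 5 without KY replicate 1 or 2. Without YOE replicate 1, the higher genes numbered 2 against KY and 1 against K326.

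In Q18 against K326, limma called 0 of the 20 pathway genes in either direction (2 at an unadjusted p under 0.05 as deposited and 0 with median scaling). Of all tested genes, 0.0128% were called higher and 0.00639% lower, and 0% and 0.0129% with median scaling. In K326 against KY, 2 were higher and 0 lower as deposited, beside 24.0% and 2.99% of all genes, and the 2 became 1 without K326 replicate 2, KY replicate 1 or KY replicate 3. With median scaling 2 were higher and 2 lower, beside 12.3% and 13.0%. The difference between the effect in YOE (minus KY) and that in Q18 (minus K326) was itself called for 6 of the 20, 1 positive and 5 negative, beside 1.86% and 6.93% of all genes. With median scaling it was called for 1 in each direction, beside 8.22% and 7.60%.

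**Figure D3:**
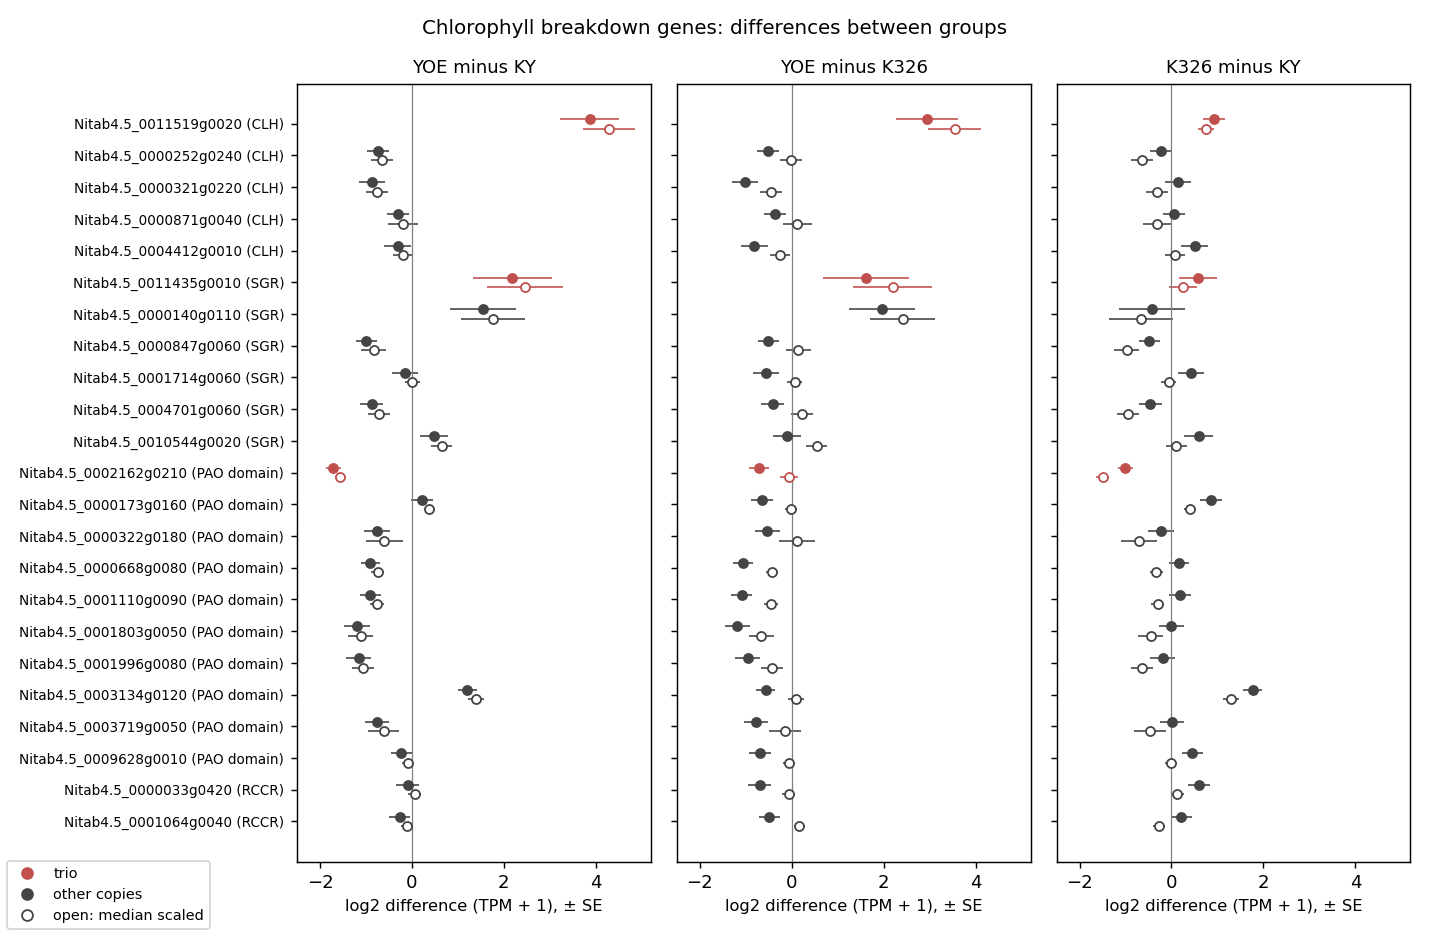
Log2 differences of TPM + 1 for YOE minus KY, YOE minus K326 and K326 minus KY, for the trio (red) and the 20 other tested pathway genes (dark), filled as deposited and open after median scaling. CLH stands for chlorophyllase, SGR for Staygreen, PAO domain for the pheophorbide a oxygenase domain and RCCR for red chlorophyll catabolite reductase. Bars are the SE, from the libraries of both groups for the trio and from limma for the others. The chlorophyllase gene of the trio lies at 3.87 and 2.94 in the comparisons of YOE with KY and K326, and its oxygenase gene near -0.06 against K326 once scaled.

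The chlorophyllase and Staygreen genes varied more than most genes within every group, most of all within YOE, whereas the oxygenase gene did not stand out. From the lowest to the highest of the 3 YOE libraries the log2 level spanned 2.16 for chlorophyllase, 2.94 for Staygreen and 0.54 for the oxygenase gene, against a median of 0.66 over all tested genes. Of all tested genes, 98.5% had a smaller span than chlorophyllase, 99.6% a smaller one than Staygreen and 35.1% a smaller one than the oxygenase gene. The same shares were 97.9%, 99.5% and 46.6% with median scaling. In Q18 chlorophyllase spanned 1.299, more than 96.7% of genes, and in K326 Staygreen spanned 1.33, more than 96.9%. In KY the spans of chlorophyllase, Staygreen and the oxygenase gene were 0.34, 0.49 and 0.15. As deposited, the smallest share of genes with a narrower span was 62.7% for chlorophyllase, in KY, and 67.6% for Staygreen, in Q18. Replicate 3 was the highest YOE library and replicate 1 the lowest for both variable genes and for the second Staygreen copy.

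**Figure D4:**
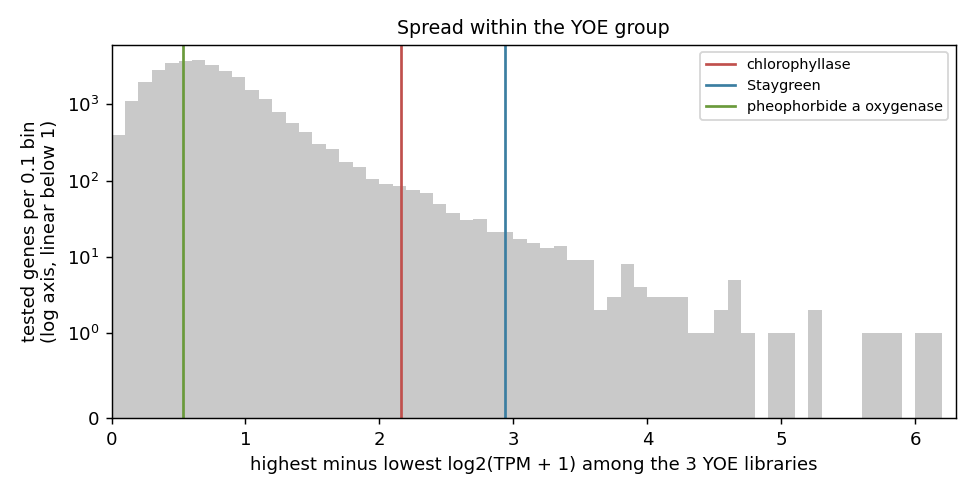
Number of tested genes by the span of log2(TPM + 1) among the 3 YOE libraries, in bins of 0.1 (vertical axis logarithmic, linear below 1), with lines for the trio. Chlorophyllase at 2.16 and Staygreen at 2.94 lie in the right tail, and the oxygenase gene at 0.54 lies near the median of 0.66.

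As deposited, the phloem list was the only marker list with the same order of YOE libraries as these genes. Several lists were looked at, and with 3 libraries a shared order can easily arise by accident. The 60 listed genes of phloem protein 2 and sieve element occlusion were taken as phloem markers by their descriptions alone. They summed to 495, 707 and 1325 TPM in YOE replicates 1, 2 and 3, against 635 to 727 TPM in Q18, 388 to 516 TPM in K326 and 446 to 466 TPM in KY. With median scaling they ranged from 685 to 1528 in YOE, above 469 to 602 in Q18, 368 to 421 in K326 and 525 to 634 in KY. Of the 60 genes, 36 passed the filter and 2 were at 0 in every library. The 36 genes with senescence in their description, of which 20 passed and 3 were at 0 throughout, summed to 252, 209 and 468 TPM in YOE, 390 to 473 TPM in Q18, 249 to 429 TPM in K326 and 183 to 229 TPM in KY. The 218 listed histone and cyclin genes of dividing cells, 122 of them past the filter and 19 at 0, stood at 1997, 1533 and 1820 TPM in YOE and between 1534 and 2871 TPM in the other libraries. The phloem sum was highest in the library with the highest chlorophyllase and Staygreen levels. The dividing-cell sums of YOE did not follow the order of these genes on either scale, nor did the senescence sums as deposited. With median scaling the senescence sums did follow it, from 349 in YOE replicate 1 to 540 in replicate 3. They ranged from 306 to 355 in Q18, 270 to 360 in K326 and 250 to 269 in KY on that scale. The part of these lists in the result was not tested, and in whole leaves more cells of a type and more RNA per cell cannot be told apart.

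Counts for chlorophyll genes outside breakdown are given beside the shares of all tested genes. In YOE against KY, where 6.76% of all genes were higher and 11.5% lower, 48 tested chlorophyll synthesis genes gave 2 higher and 11 lower calls. The 88 tested light-harvesting genes, which bind most chlorophyll of the leaf, gave 1 and 19, and the 20 tested senescence genes 4 and 4. With median scaling (17.7% and 17.3% of all genes) the counts were 3 and 10 for synthesis, 1 and 10 for light-harvesting, and 6 and 4 for senescence. In YOE against K326, where 1.89% of all genes were higher and 36.9% lower as deposited, the counts were 0 and 7, 0 and 24, and 1 and 10 in the same order of lists. With median scaling (5.59% and 4.73%) they were 2 and 1, 0 and 1, and 3 and 2. In K326 against KY (24.0% and 2.99% as deposited) they were 5 and 6, 5 and 3, and 4 and 0. With median scaling (12.3% and 13.0%) they were 4 and 16, 2 and 18, and 2 and 1, so that the larger count of light-harvesting genes changed from higher to lower. In Q18 against K326 limma called 0 members of these lists on either scale (1, 2 and 4 at an unadjusted p under 0.05 as deposited, and 1, 3 and 7 with median scaling, for synthesis, light-harvesting and senescence).

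The genes most like each of the trio were sought by Pearson's r of log2(TPM + 1) over the 12 libraries, among the described genes with a mean of at least 5 (11909 or 11910 genes as deposited and 12117 with median scaling). These values describe the libraries, which fall into 4 genotypes. As deposited, the chlorophyllase gene was most like a GDSL lipase gene, Nitab4.5_0000007g0320 (r = 0.973), which averaged 14.1 ± 7.70 TPM in YOE, 3.017 ± 0.7 TPM in Q18, 3.31 ± 0.831 TPM in K326 and 2.43 ± 0.459 TPM in KY. A purple acid phosphatase gene, Nitab4.5_0000491g0110 (r = 0.961), and a Mob1/phocein gene, Nitab4.5_0000343g0160 (r = 0.960), came next. With median scaling none of these 3 stayed among its nearest, which became a syntaxin gene (Nitab4.5_0006454g0030, r = 0.982), a thioredoxin gene (Nitab4.5_0000048g0140, r = 0.981) and a peptidase M20 gene (Nitab4.5_0009106g0040, r = 0.978).

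The Staygreen gene was most like a protein kinase gene, Nitab4.5_0000249g0220, on both scales (r = 0.977 and 0.982). That kinase gene averaged 20.7 ± 21.8 TPM in YOE, 4.83 ± 0.511 TPM in Q18, 4.40 ± 2.01 TPM in K326 and 2.03 ± 0.308 TPM in KY. As deposited it was followed by glycoside hydrolases of family 17, Nitab4.5_0003676g0080 (r = 0.971) and Nitab4.5_0009324g0030 (r = 0.967), and with median scaling by a peptidase M20 gene, Nitab4.5_0009613g0040, and a cytidyltransferase-like gene, Nitab4.5_0000443g0220 (both r = 0.978). The oxygenase gene was most like Nitab4.5_0000059g0230, with pyruvate, phosphate dikinase domains (r = 0.988), at 5.67 ± 3.01 TPM in YOE, 28.2 ± 4.05 TPM in Q18, 21.1 ± 6.17 TPM in K326 and 112 ± 10.1 TPM in KY. An ankyrin repeat gene with a RING finger, Nitab4.5_0000326g0080 (r = 0.988), and a malic enzyme gene, Nitab4.5_0004241g0030 (r = 0.987), were next. With median scaling these gave way to a pyridoxamine 5'-phosphate oxidase gene (Nitab4.5_0000642g0300, r = 0.987), a SecA gene of protein translocation (Nitab4.5_0003092g0020, r = 0.986) and a gene of the Clp protease subunit ClpP (Nitab4.5_0007698g0010, r = 0.986), all of which were highest in KY.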

How the data were processed

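RNA of seedling leaves was sequenced in 12 libraries, and 1 deposited table with 69500 genes was used. The authors' values were taken as TPM, from the tools that the submitters' processing notes name (Salmon and StringTie, no versions) and from the range of the deposited values. No unit stands in the header, so FPKM cannot be told apart from TPM. The sources used here give no genome build or aligner settings. TPM keeps no depth, so the number of reads behind a value is unknown and no counting interval is given. No pair of libraries was identical (0), and 0 identifiers matched the RefSeq table of assembly ASM71507v2, so positions and sequences are not given.

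Genes at 1 TPM or more in at least 3 libraries (31311, or 31064 after median scaling, whose factors rest on 20130 genes) were fitted as log2(TPM + 1) in limma 3.58.1 (R 4.3.3). The model took 1 mean per group from the 12 libraries together (trend = TRUE, robust = TRUE), and p-values were adjusted by Benjamini and Hochberg's method across all tested genes, with calls at 0.05. It was checked on simulated data. All 3 genes of the trio passed the filter and get no p. Their SE comes from the 3 libraries of each group compared. Other pathway genes and lists were found by words in the gene descriptions, as were marker lists. All tested pathway genes may be named, with the 3 genes most like each of the trio. The second Staygreen copy and the mirrored oxygenase gene were singled out after their values were seen. Members and lists were chosen with earlier results of these data known. Alternatives were median scaling, quantile normalization, a pseudocount of 0.1, a filter at a mean of 5 or none, a replicate block, calls limited to folds of 2 or more, a fit on just the 6 libraries compared, and leaving out each library. Figures used matplotlib 3.10.9 and Python 3.11.15.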

Additional observations from a re-analysis of the deposited data

Results flagged for a closer look

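For 6 pathway genes beside the trio, the difference between the effect in YOE (minus KY) and the effect in Q18 (minus K326) was itself called by limma as deposited. It was positive for the oxygenase-domain gene Nitab4.5_0003134g0120 (1.16 on the log2 scale, SE 0.29, adjusted p = 0.0212; 1.61 and adjusted p = 0.00204 with median scaling). It was negative for 4 others with that domain: Nitab4.5_0000668g0080 (-1.11, SE 0.30, adjusted p = 0.0315), Nitab4.5_0001110g0090 (-1.10, SE 0.33, adjusted p = 0.0469), Nitab4.5_0001803g0050 (-1.33, SE 0.39, adjusted p = 0.0434) and Nitab4.5_0001996g0080 (-1.28, SE 0.38, adjusted p = 0.0472). The chlorophyllase gene Nitab4.5_0000252g0240 was also negative (-1.29, SE 0.34, adjusted p = 0.0297). Of all tested genes, 1.86% were called positive and 6.93% negative as deposited, and 8.22% and 7.60% with median scaling. The median of this difference over all tested genes was -0.35 as deposited and -0.03 with median scaling. With median scaling, of the negative genes only Nitab4.5_0000668g0080 passed (-0.69, adjusted p = 0.0312), and the others had adjusted p from 0.05003 to 0.0931. Across 19 alternatives the 6 calls were kept in 6 to 15, and each was lost when any of the 3 KY libraries was left out. YOE went with K326 at the 87 genes present in K326 and near 0.2 TPM or below in KY. The line and the cultivar therefore cannot be told apart in these values.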

How the results depend on the processing

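Of 112 values of the trio's log2 differences and of the counts of other pathway genes called, recomputed under alternatives other than leaving out a library, 91 stayed within the replicate spread or within 1.5 times the count. For those that moved further the cause was not tested. The 91 include the trio's differences under the replicate block, which equal the main values by design, since every group holds each replicate number. A pseudocount of 0.1 gave chlorophyllase log2 differences of 5.45 for YOE minus KY and 1.93 for K326 minus KY, whose KY level is low. For the oxygenase gene, median scaling gave -0.057 for YOE minus K326, -0.20 for Q18 minus K326 and -1.50 for K326 minus KY, and quantile normalization gave -0.20 and -1.38 for YOE minus K326 and K326 minus KY. The count of genes lower in YOE than in K326 (11) was 0 with median scaling, 2 with quantile normalization, 4 at a fold of at least 2, 5 with the 6 libraries alone, 6 without a filter and 7 with the replicate block, and quantile normalization made 1 gene higher. Lower than in KY (8), 2 passed a fold of at least 2, and median scaling made 3 higher in place of 1. In K326 minus KY the 2 higher genes became 1 at a fold of at least 2 and 5 with the 6 libraries alone, and the 0 lower ones became 2 with median scaling, 2 with quantile normalization and 1 with the 6 libraries alone. Nitab4.5_0003134g0120 turned to 0.087 in YOE minus K326 with median scaling.

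With a library left out, the counts ranged from 3 to 12 (lower in YOE than K326), 0 to 1 (higher), 5 to 8 (lower in YOE than KY), 1 to 2 (higher) and 1 to 2 (higher in K326 than KY). The trio's differences ranged from 3.27 to 4.35, 1.42 to 2.89 and -1.82 to -1.56 for YOE minus KY (chlorophyllase, Staygreen, oxygenase), and from 2.35 to 3.42, 0.85 to 2.32 and -0.84 to -0.55 for YOE minus K326. Same-numbered libraries were not treated as pairs: over 12 such pairs the correlation of deviations ran from -0.22 to 0.34, with 3 above 0.1, and a library correlated best with its own number in 4 of 12 checks. The numbers compared, and those of the replicate block, were those of the library labels. In YOE and for KY replicate 3 they differ from the numbers in the raw data names, by which pairing was not tested. The replicate block lowered the 11 genes lower in YOE than in K326 to 7. It could not change the trio's differences, since every group holds each replicate number.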
